A study of Mus musculus with 6 samples.

Results

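The VEGF family comprises 10 genes here: the secreted ligands Vegfa, Vegfb, Vegfc, Vegfd and Pgf, the receptor tyrosine kinases Flt1, Kdr and Flt4, and the neuropilins Nrp1 and Nrp2. They were followed in quadriceps, a thigh muscle, of mice that overexpress the orphan nuclear receptor ERRγ (gene Esrrg) and of wild-type mice. Members were taken as every probe set annotated to exactly 1 gene of the family, which gave 25 of 45037 probe sets, with all 10 genes represented among 18193. The transgenic animals were males of the C57/BL6 strain, 8 weeks old, carrying ERRγ under the skeletal actin promoter, written as hSkeletal Actin in the sample labels and as α-skeletal actin in the design text. The wild-type animals were of the same strain, sex and age. Each genotype had 3 arrays, titled as biological replicates. This promoter is known for activity in muscle fibres rather than in vascular cells. How many founder lines were used is not given in the sources used here.

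VEGF ligands are dimeric growth factors that act mainly on endothelial cells. VEGF-A, made by muscle fibres and many other cells, binds both Flt1 (VEGFR1) and Kdr (VEGFR2). Kdr carries most of the proliferative and permeability signal, whereas Flt1 binds the ligand tightly, signals weakly and exists also in a soluble form that traps it. VEGF-B and placental growth factor bind Flt1, while VEGF-C and VEGF-D bind Flt4 (VEGFR3), the receptor of lymphatic endothelium, and VEGF-C after proteolytic processing can also engage Kdr. Neuropilins are co-receptors that also bind class 3 semaphorins. In skeletal muscle the family is known for matching capillary supply to oxidative demand.

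Values are Affymetrix MAS5 signals on a linear scale, with each array scaled to a trimmed mean of 200, and array medians were 57.1 to 61.9 in transgenic and 52.1 to 56.3 in wild-type muscle. Differences are of log2(signal + 16), transgenic minus wild-type, a scale that understates changes of dim probe sets. They were tested with limma, and a call is a two-sided Benjamini-Hochberg adjusted p under 0.05 over all 26995 probe sets whose mean signal exceeded 37.8. Of the members, 23 of 25 probe sets and 9 of 10 genes passed that filter. Pgf and the dimmest Vegfc probe set did not. The transgene checked the labels. The brightest Esrrg probe set read 14427, 13808 and 12697 in transgenic muscle, against 71.6, 61 and 24.1 in wild-type muscle (log2 difference 7.72, limma adjusted p = 1.71e-07). Muscle fibre markers (9 genes, such as Acta1 and Ckm) summed to 162983 to 185882 in transgenic and 143182 to 182958 in wild-type muscle and were bright on every array, with myoglobin (Mb) the only one called, with a log2 difference of 1.45 (named after its values were seen). Wild-type 3 stood apart in adipocyte markers, with a mean log2 value of 11.14 over 5 genes, against 9.03 to 10.23 on the transgenic arrays and 9.48 to 9.74 on the other wild-type arrays. Detection calls were not used here. The number of arrays limits the precision, and an exact permutation test of 3 arrays against 3 cannot give a p below 0.1.

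Vegfa and Vegfb rose more than 2-fold in transgenic muscle, the receptors Flt1 and Kdr and the co-receptor Nrp1 rose by 1.66- to 1.88-fold at the probe sets that passed, and Vegfd fell. By gene, at the probe set with the highest mean signal, 5 of the 9 tested members were called higher, where the background over 12529 genes was 7.65%, and 1 was called lower, against a background of 5.75%. Among the 23 tested probe sets, 11 were called higher (6.38% of all tested probe sets were) and 1 lower (5.16% were). The genotypes did not overlap at 19 of the 23, against 31% of all tested probe sets. Among the 19, the dimmest Nrp2 probe set passed the filter only through its transgenic values. The median difference over the 9 genes was 0.75, beside 0.03 over all genes tested. Without wild-type 3, 4 genes were called higher and 1 lower.

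**Figure D1:**
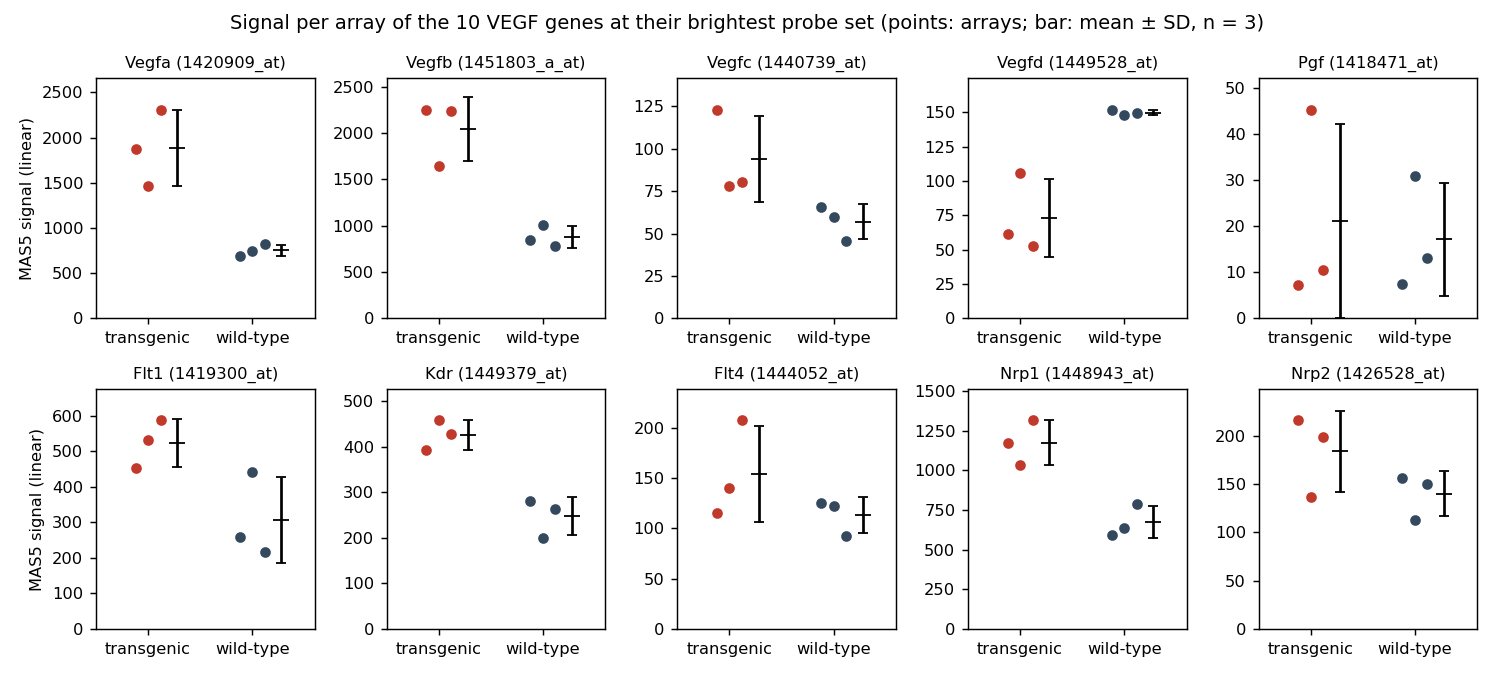
MAS5 signal (linear, y axis from 0, own scale per gene) of each VEGF gene at its brightest probe set, transgenic arrays left and wild-type arrays right; points are arrays and bars are mean ± SD of 3. Vegfa and Vegfb read 1463 or more on every transgenic array and 1005 or less on every wild-type array, Vegfd is lower on every transgenic array, and Pgf reads 45.3 or less throughout.

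The ligands Vegfa and Vegfb had the largest differences of the family. Because they moved together, the 250 bases before their RefSeq starts (build GRCm38.p6) are shown beside those of Vegfd, the ligand that fell. Vegfa lies at chr17:46032378-46032627, Vegfb at chr19:6987652-6987901, both on the minus strand, and Vegfd at chrX:164373272-164373521 on the plus strand. Sequences run 5′ to 3′ along the gene, and capitals mark AGGTCA, the core bound by many nuclear receptors, and GGGCGG, the GC box bound by Sp1, on either strand (there TGACCT and CCGCCC).
Vegfa: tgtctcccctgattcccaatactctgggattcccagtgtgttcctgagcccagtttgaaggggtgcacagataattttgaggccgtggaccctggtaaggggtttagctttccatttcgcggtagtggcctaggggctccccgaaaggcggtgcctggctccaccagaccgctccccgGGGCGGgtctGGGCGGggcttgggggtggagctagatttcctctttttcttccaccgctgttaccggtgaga
Vegfb: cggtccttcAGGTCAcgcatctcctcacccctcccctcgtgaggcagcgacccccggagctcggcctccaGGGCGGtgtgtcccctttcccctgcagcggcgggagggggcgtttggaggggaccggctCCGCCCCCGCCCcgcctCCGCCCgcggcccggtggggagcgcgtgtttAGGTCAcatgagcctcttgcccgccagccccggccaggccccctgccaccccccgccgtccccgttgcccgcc
Vegfd: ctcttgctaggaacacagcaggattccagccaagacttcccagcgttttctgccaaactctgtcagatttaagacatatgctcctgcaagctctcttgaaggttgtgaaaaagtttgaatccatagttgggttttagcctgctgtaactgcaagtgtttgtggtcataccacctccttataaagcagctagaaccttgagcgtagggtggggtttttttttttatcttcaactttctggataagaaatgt

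The Vegfb sequence holds AGGTCA at 2 places, 241 to 236 and 73 to 68 bases before the start, and 4 GC boxes. The Vegfa sequence holds 2 GC boxes and the Vegfd sequence holds neither motif. GC boxes also stood before the other called members (Flt1 3, Kdr 2, Nrp1 1) and before members that were not called (Nrp2 5, Flt4 3, Vegfc 2). A second annotated Vegfa start, at chr17:46025164-46025413, has 1 GC box and 1 copy of ACGTG, the core of the hypoxia response element. Over the 12 annotated starts of the 10 genes, AGGTCA otherwise occurred once, at Nrp1, and the longer ERR response element TNAAGGTCA, which contains AGGTCA, did not occur. Of all 32851 such windows in the mouse, 14% held AGGTCA, 1.14% TNAAGGTCA, 16.6% ACGTG and 32.7% GGGCGG, counting both strands. These matches describe letters in a short window and say nothing of binding there or elsewhere.

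Vegfa, the main angiogenic ligand of muscle, was measured by a pair of probe sets. The brighter read 1879, 1463 and 2309 in transgenic muscle, against 694.3, 740.9 and 820.7 in wild-type muscle. All transgenic arrays lay above all wild-type arrays, by a ratio of means of 2.50 (1884 ± 423.3 against 752 ± 63.9, SD, n = 3 each). The log2 difference was 1.29 (SE 0.16, limma adjusted p = 0.000594). The dimmer probe set read 686.3, 882.6 and 792.8 in transgenic muscle, against 299, 371.8 and 290 in wild-type muscle. Again the groups were apart, with a ratio of 2.46 and a log2 difference of 1.26 (SE 0.14, limma adjusted p = 0.000372). Transgenic 2 was the lowest transgenic array at the first probe set and the highest at the second, so the order of the transgenic animals was not shared between them.

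Vegfb, a ligand of Flt1 and neuropilin 1 linked in mice to endothelial fatty acid uptake, has a single probe set. It read 2255, 1647 and 2240 in transgenic muscle, against 841.1, 1005 and 777.6 in wild-type muscle. Every transgenic array exceeded every wild-type array, with means of 2047 ± 346.7 and 874.6 ± 117.3 (SD, n = 3 each) and a ratio of 2.34. The log2 difference was 1.21 (SE 0.15, limma adjusted p = 0.000599). All 3 probe sets of Vegfa and Vegfb kept their calls under each of 17 alternative settings.

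Vegfd, a ligand of the lymphatic receptor Flt4, moved the other way. Its brightest probe set read 61.3, 105.7 and 52.6 in transgenic muscle, against 151.8, 147.9 and 149.4 in wild-type muscle. The wild-type arrays were close together and the transgenic arrays all lower and more scattered (73.2 ± 28.5 against 149.7 ± 2 signal units, SD, n = 3 each). The log2 difference was -0.94 (SE 0.22, limma adjusted p = 0.0220). The other Vegfd probe sets differed by -0.70 (SE 0.22, limma adjusted p = 0.0716) and -0.59 (SE 0.19, limma adjusted p = 0.0795), with no overlap between genotypes but without passing. The call rested on few arrays: the limma adjusted p was 0.0769 without transgenic 1, 0.0685 without transgenic 3, 0.0765 without wild-type 1 and 0.0682 without wild-type 2.

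Vegfc, the other ligand of Flt4, read 123.1, 78.3 and 80.6 in transgenic muscle at its brightest probe set, against 65.4, 59.8 and 45.6 in wild-type muscle. The groups did not overlap, yet the log2 difference of 0.58 (SE 0.23) did not pass (limma adjusted p = 0.149). A further Vegfc probe set differed by 0.43 (limma adjusted p = 0.270), and the dimmest, below the filter, read 7 to 35 in transgenic and 14.6 to 27.8 in wild-type muscle. Pgf, placental growth factor, which binds Flt1 alone among the receptor kinases, read 7.3, 45.3 and 10.5 in transgenic muscle, against 7.4, 30.9 and 13.1 in wild-type muscle. These dim and overlapping signals leave Pgf without a usable comparison.

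Flt1 rose at all 4 of its probe sets, with similar sizes. The brightest read 452.8, 530.7 and 586.6 in transgenic muscle, against 257.3, 442.7 and 216.8 in wild-type muscle. Wild-type 2 came close to the lowest transgenic array, and the log2 difference of 0.80 (SE 0.22) only just passed (limma adjusted p = 0.0428). At this probe set the limma adjusted p was 0.0736 without transgenic 1, 0.113 without transgenic 2, 0.128 without transgenic 3, 0.146 without wild-type 1 and 0.0941 without wild-type 3, against 0.00407 without wild-type 2. The second probe set read 574.8, 494.5 and 438.3 in transgenic muscle, against 238.1, 286 and 290.6 in wild-type muscle. Here the genotypes were well apart, with a log2 difference of 0.85 (SE 0.14, limma adjusted p = 0.00360). The remaining Flt1 probe sets differed by 0.86 (SE 0.17) and 0.76 (SE 0.16), and these, like the second, passed in all 17 alternatives.

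Kdr, the main signalling receptor for VEGF-A on blood endothelium, has 1 probe set, which read 392.2, 458.2 and 428.4 in transgenic muscle, against 280.9, 200.7 and 262.9 in wild-type muscle. The groups did not overlap, and the ratio of means was 1.72 (426.3 ± 33.1 against 248.2 ± 42.1 signal units, SD, n = 3 each). On the log2 scale Kdr rose by 0.75 (SE 0.15, limma adjusted p = 0.00882) and kept its call in all 17 alternatives.

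Flt4, which marks lymphatic endothelium and some capillary cells, did not pass. It read 114.8, 140.3 and 207.2 in transgenic muscle, against 125.2, 122.3 and 92.4 in wild-type muscle. The genotypes overlapped, transgenic 3 was the highest array, and the log2 difference was 0.37 (SE 0.22, limma adjusted p = 0.320). That value was 0.16 without transgenic 3 and 0.54 without transgenic 1. The dimmer Flt4 probe set also overlapped, at 0.67 (SE 0.31, limma adjusted p = 0.200).

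Nrp1, the neuropilin of arterial and capillary endothelium that presents VEGF-A to Kdr, rose at 3 of its 4 probe sets. The brightest read 1174, 1036 and 1315 in transgenic muscle, against 591.5, 638 and 785.4 in wild-type muscle. The groups were apart, with a log2 difference of 0.80 (SE 0.14, limma adjusted p = 0.00403). The next read 845, 826.5 and 842.8 in transgenic muscle, against 459.9, 509 and 544.9 in wild-type muscle, a log2 difference of 0.72 (SE 0.11, limma adjusted p = 0.00226). The third differed by 0.83 (SE 0.12, limma adjusted p = 0.00150). The dimmest, at 0.80 (SE 0.24), overlapped between genotypes and missed the threshold (limma adjusted p = 0.0549).

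Nrp2, the neuropilin of venous and lymphatic endothelium, was positive at all 4 probe sets, between 0.27 and 0.76, and passed at none (limma adjusted p 0.0867 to 0.346, with 2 of the 4 at an unadjusted p under 0.05). The dimmest, at 0.76, had a wild-type mean of 36.9, under the filter level of 37.8, so it was tested only through its transgenic values. The brightest read 215.8, 136.7 and 198.9 in transgenic muscle, against 156.2, 113.1 and 149.9 in wild-type muscle, which overlapped. The log2 difference there was 0.35 (SE 0.20, limma adjusted p = 0.302).

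**Figure D2:**
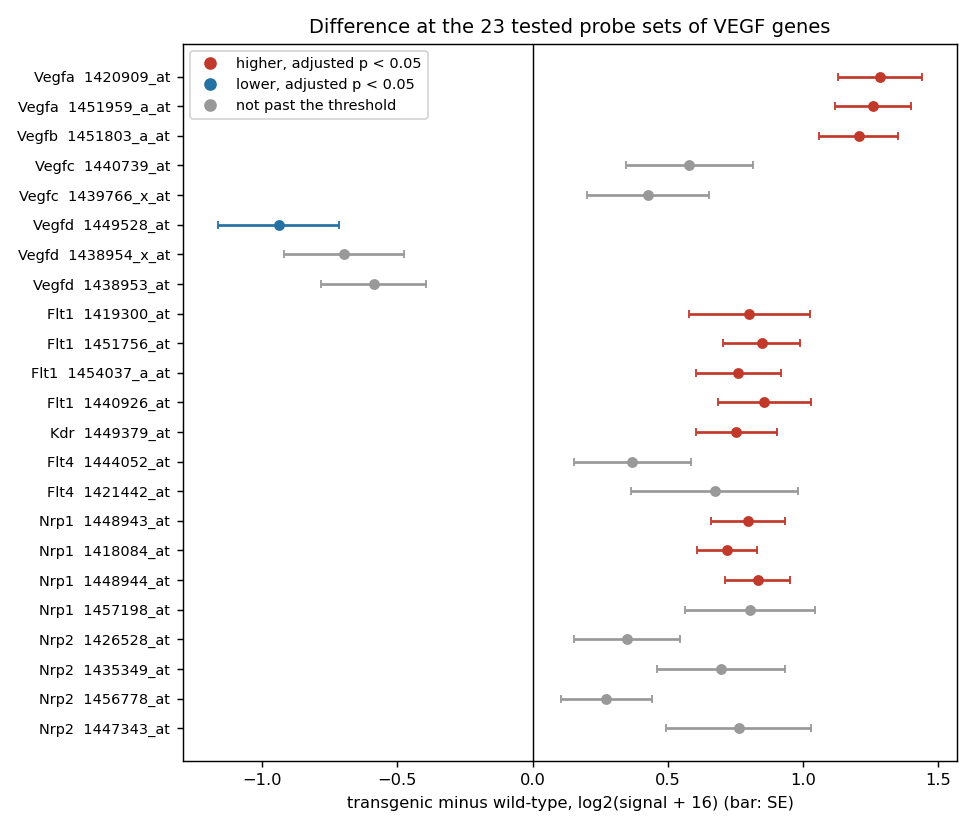
Difference between transgenic and wild-type muscle (x axis, log2(signal + 16)) at each of the 23 tested VEGF probe sets, with SE bars from limma; red passed as higher, blue as lower, grey did not pass. Probe sets of 1 gene lie on the same side of 0: Vegfa at 1.29 and 1.26, Flt1 from 0.76 to 0.86, and all 3 of Vegfd below 0. Those of Nrp2 (0.27 to 0.76) and Flt4 (0.37 and 0.67) lie further apart.

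Endothelial markers moved with the receptors. Of 18 pan-endothelial genes outside the family, 11 were called higher, none lower and 7 did not pass (7.65% of all genes were called higher), with a median difference of 0.67 (the count higher was 14 with wild-type 3 left out, 7 with transgenic 2 left out, and 6 with either transgenic 3 or wild-type 1 left out). The count was also 6 after median scaling or without the intensity trend and 8 without the filter. At an unadjusted p under 0.05, limma gave 14 higher and 0 lower. The largest differences of the 18 were those of Esam, a junctional adhesion protein (1.32), and Gpihbp1, the capillary anchor of lipoprotein lipase (1.04). Pecam1 and Cdh5, both junction proteins, differed by 0.77 each. The 7 that did not pass ran from 0.19 (Vwf) to 0.72 (Erg) and included Tek (0.31) and Cldn5 (0.40). The marker signals summed to 8869 to 10270 in transgenic and 4831 to 6262 in wild-type muscle. In whole muscle, more endothelial cells and more receptor RNA per endothelial cell cannot be told apart. The mean log2 value over these markers was 8.83 ± 0.12 in transgenic and 8.17 ± 0.16 in wild-type muscle (SD, n = 3 each).

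Each gene was then expressed relative to that endothelial mean on the same array, a comparison chosen after the data were seen. This subtracts the same 0.66, the difference of the endothelial mean, from every gene's difference, so only the spread between arrays is specific to a gene. Kdr lay at -0.03, 0.06 and -0.15 in transgenic muscle, against 0.22, -0.44 and -0.18 in wild-type muscle. The genotypes thus overlapped, and the difference was 0.09 (exact two-sided permutation p = 0.7), beside 0.75 without this adjustment. Flt1 differed by 0.14 (exact permutation p = 0.7) and Nrp1 by 0.14 (exact permutation p = 0.3), both with overlap. Vegfa lay at 2.19, 1.70 and 2.24 in transgenic muscle, against 1.36 to 1.48 in wild-type muscle, still without overlap, a difference of 0.62. Vegfb also stayed apart, by 0.55 (exact permutation p = 0.1 for both, the smallest possible). For Vegfd, already lower, the common shift gives -1.60. Differences between the genes' responses were not tested.

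**Figure D3:**
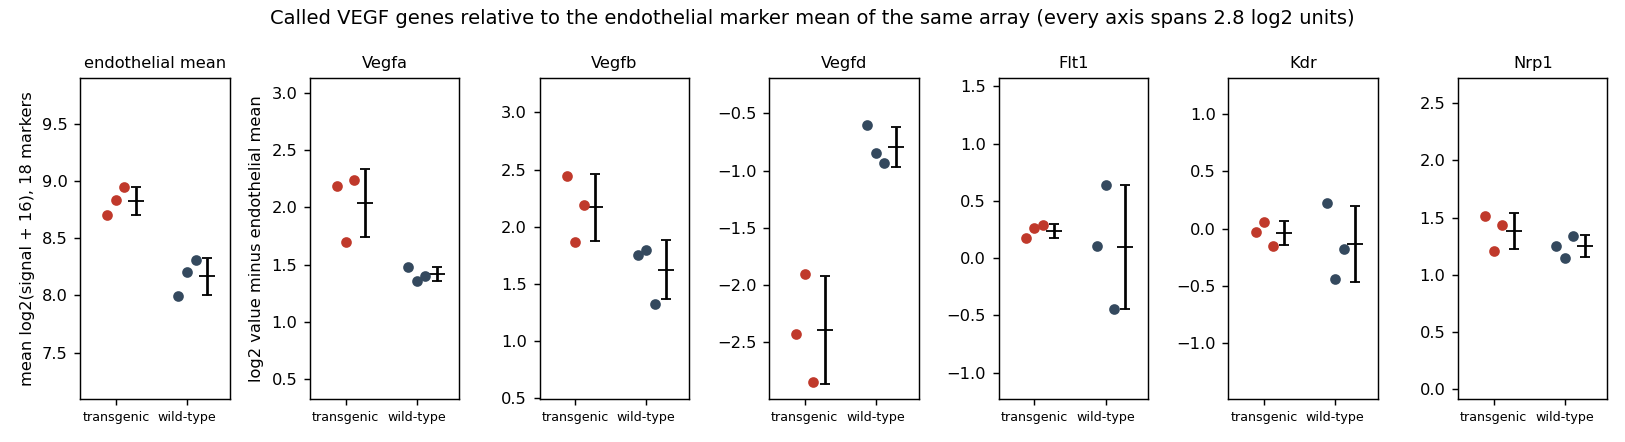
Left panel: mean log2(signal + 16) of 18 endothelial markers per array. Other panels: log2 value of each called VEGF gene minus that mean on the same array, transgenic left and wild-type right (points: arrays; bars: mean ± SD of 3; each y axis spans the same range of log2 units); subtracting the mean lowers every difference by 0.66. Vegfa, Vegfb and Vegfd stay apart, whereas Flt1, Kdr and Nrp1 overlap.

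Markers of other cell types were read in the same way. Of 5 lymphatic endothelial markers, Lyve1, Pdpn, Mmrn1 and Reln missed the threshold and had a median of -0.16 (0 of the 4 at an unadjusted limma p under 0.05), and Prox1, the defining factor, was below the filter at 26.8 to 51.2 in transgenic and 15.5 to 33.5 in wild-type muscle. Lymphatic markers summed to 618.3 to 753.1 in transgenic and 710.4 to 777.5 in wild-type muscle. Beside the fall of Vegfd, macrophage and leukocyte markers had a median of -0.35 over 11 tested genes, with Lyz2, encoding lysozyme, called lower, and sums of 3031 to 3734 in transgenic and 4064 to 4657 in wild-type muscle. Fibroblast markers had a median of -0.31 over 8 genes, with Dpt, a matrix protein, called lower, and sums of 30439 to 30535 in transgenic and 32365 to 37477 in wild-type muscle. These 2 lists thus had 1 of 11 and 1 of 8 genes called lower, where 5.75% of all genes were. The T cell gene Cd3e and the B cell gene Cd79a were dim, below 50 on every array. Pericyte and smooth muscle markers had a median of 0.36 over 9 tested genes, with Rgs5 and Kcnj8 called higher (7.65% of all genes were called higher). The other 7 did not pass. Among them only Abcc9 was below 0, and it was lower on every transgenic array (log2 difference -0.31, limma adjusted p = 0.101). Adipocyte markers had a median of -0.73 over 5 genes with none called, and Schwann cell markers -0.09 over 2 genes. The single tested blood marker, Alas2, differed by 0.73 without passing (limma adjusted p = 0.112). After median scaling, 4 macrophage and 2 fibroblast markers were called lower. That scaling gave 977 higher and 2399 lower calls over the array, against 1721 and 1394 as deposited. Without the intensity trend no macrophage or fibroblast marker was called lower (3 and 1 at an unadjusted limma p under 0.05). The adipocyte median was -0.20 without wild-type 3, -0.44 without transgenic 3, -1.13 without transgenic 2 and -1.10 without wild-type 2. The Lyz2 call was lost without transgenic 1, transgenic 3, wild-type 1 or wild-type 2, and the Dpt call with any array but wild-type 2 left out. Even so, 1 macrophage marker was called lower without transgenic 3 and 1 without wild-type 2. The called genes of these lists are named after their values were seen. The part of these cell types in the differences of VEGF genes was not tested.

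Signal transducers act downstream of the receptors. Of 35 tested, 1 was called higher, 2 were called lower and 32 missed the threshold, where the shares over all genes were 7.65% higher and 5.75% lower. The median was -0.13 (-0.27 after median scaling, -0.03 without transgenic 3, -0.08 without wild-type 2 and -0.22 without transgenic 2). Without wild-type 3 the counts were 1 higher and 7 lower, and without wild-type 1, 0 higher and 1 lower. Nfatc2, a calcium-regulated transcription factor, fell, with 111.3 ± 11.1 in transgenic and 203.6 ± 8.5 in wild-type muscle (SD, n = 3 each, log2 difference -0.79, limma adjusted p = 0.00680). Its dimmer tested probe sets ran both ways, from -0.88 to 0.54, and did not pass. Ppp3r1, the regulatory subunit of calcineurin, differed by -0.58 (limma adjusted p = 0.0162), while its other probe set gave 0.21 without passing. Pik3cd, a catalytic subunit of phosphoinositide 3-kinase, differed by 0.59 (limma adjusted p = 0.0236) at its brightest probe set, and its other tested probe sets by -0.12 and -1.09 without passing. The Ppp3r1 call was lost without transgenic 3, wild-type 1 or wild-type 2, and the Pik3cd call without transgenic 1, transgenic 2 or wild-type 1.

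Among transcriptional and oxygen-sensing regulators of VEGF genes, 2 of 16 rose and 2 fell (7.65% and 5.75% of all genes), with a median of 0.10 (-0.05 after median scaling, 0.06 without transgenic 3 and 0.05 without wild-type 1). Epas1, encoding HIF-2α, an oxygen-regulated factor abundant in endothelium, rose and read 6194, 5981 and 6928 in transgenic muscle, against 3022, 3731 and 4074 in wild-type muscle (log2 difference 0.82, SE 0.12, limma adjusted p = 0.00165). A second Epas1 probe set gave 0.87 (limma adjusted p = 0.00163). Ppargc1b, the coactivator PGC-1β, rose with 939.5 ± 212.6 in transgenic and 472.6 ± 25.4 in wild-type muscle (SD, n = 3 each, log2 difference 0.95, limma adjusted p = 0.00305). Egln2, a prolyl hydroxylase that marks HIF subunits for destruction, fell, with 665.2 ± 55.7 in transgenic and 1160 ± 37.5 in wild-type muscle (log2 difference -0.79, limma adjusted p = 0.00112). Hif1an, the asparaginyl hydroxylase that restrains HIF activity, also fell, by 0.77, and is named here after its values were seen. The 12 that did not pass ran from -0.12 (Hif3a) to 1.05 (Esrrb, with overlap between genotypes, limma adjusted p = 0.0569). Among them were Ppargc1a (difference 0.00) and Hif1a (-0.10), both known activators of Vegfa. Their limma adjusted p were 0.999 and 0.673, for RNA at the brightest probe set. These uncalled genes are likewise named after their values were seen. All 4 called regulators kept their calls in all 17 alternatives.

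The semaphorin and plexin partners of neuropilins had 1 of 12 tested genes called, where 13.4% of all genes were. It was Sema3c, a secreted neuropilin ligand, at 882.7 ± 104.1 in transgenic and 1350 ± 123.3 in wild-type muscle (SD, n = 3 each, log2 difference -0.61, limma adjusted p = 0.00926). The median of the list was 0.19 (0.06 after median scaling and 0.09 without transgenic 1). The second Sema3c probe set also fell, by 0.64 (limma adjusted p = 0.0231), and without transgenic 1 a further partner was called, making 2 lower. Among 18 genes for extracellular processing and binding of VEGF proteins, 2 were called, a share below the 13.4% of all genes. Of these Mmp9, a protease that frees matrix-bound VEGF, was called higher (0.73, limma adjusted p = 0.0481). Thbs2, an antiangiogenic matrix protein, was called lower (-0.60, limma adjusted p = 0.0338). The other Mmp9 probe set was below the filter, at 3.6 to 9.7 in transgenic and 6 to 13.3 in wild-type muscle. Further Thbs2 probe sets differed by -0.46 (limma adjusted p = 0.0803) and -0.13 (limma adjusted p = 0.769). The median of the list was -0.04, and -0.19 after median scaling. The Mmp9 call was lost when any array but wild-type 3 was left out, and the Thbs2 call without transgenic 2, transgenic 3, wild-type 1 or wild-type 2. The processing genes called numbered 0 without transgenic 2, transgenic 3 or wild-type 1 (3 higher and 1 to 3 lower at an unadjusted limma p under 0.05) and 1 without transgenic 1 or wild-type 2.

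Of 15 tested endothelial genes known to be induced by VEGF, 3 rose and 1 fell (7.65% and 5.75% of all genes). Their median was 0.43, beside 0.67 for the 18 pan-endothelial markers. Without transgenic 1, transgenic 2, wild-type 1 or wild-type 2 the counts were 2 higher and 0 lower (1 lower at an unadjusted limma p under 0.05). Notch4, a Notch receptor of endothelium, read 248.4, 313.8 and 457.7 in transgenic muscle, against 117.8, 175.5 and 159.1 in wild-type muscle (log2 difference 1.07, SE 0.22, limma adjusted p = 0.0105). Its other probe sets were below the filter and overlapped between genotypes, with log2 differences of 0.67 and -0.45. Unc5b, a netrin receptor of tip cells, rose with 146.8 ± 16.4 in transgenic and 63.7 ± 6.5 in wild-type muscle (log2 difference 1.03, limma adjusted p = 0.00438). Its dimmer probe set differed by 1.23 (limma adjusted p = 0.0462, and 0.0956 without the filter). The wild-type mean there, 25.7, was under the filter level of 37.8, so that probe set was tested only through its transgenic values. Rcan1, an inhibitor of calcineurin that muscle fibres express as well, fell by 0.77 (limma adjusted p = 0.0325) and by 0.93 at its second probe set. The call at the first probe set was lost without transgenic 1, transgenic 2, wild-type 1 or wild-type 2. The third riser was Aplnr, the apelin receptor (0.69, limma adjusted p = 0.0353), named after its values were seen and lost when any array but wild-type 3 was left out. Esm1, a tip cell gene and VEGF target, and Dusp5, a phosphatase, were below the filter, at or under 22.6 on every array.

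**Figure D4:**
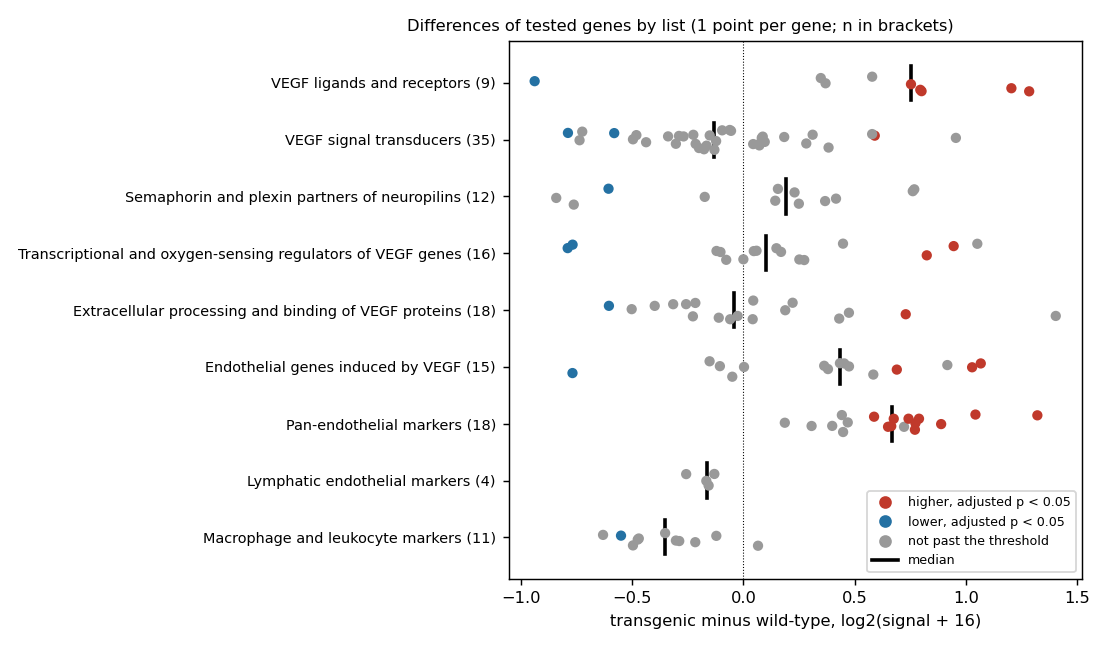
Log2 difference, transgenic minus wild-type (x axis), of each tested gene at its brightest probe set, by gene list (rows, number of genes in brackets; colours give the limma call, vertical bars the median). The VEGF family and pan-endothelial medians, 0.75 and 0.67, lie to the right of the signal transducer median, -0.13.

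The genes whose pattern over the 6 arrays was most like that of each called member were found by the mean absolute distance of log2 values centred per gene. Nearest to Vegfa were Ppip5k1 (distance 0.08 log2 units), Adk (0.10), which encodes adenosine kinase, and Chrna1 (0.10), the α subunit of the muscle acetylcholine receptor, where the median gene lay at 0.64. Nearest to Vegfb were Gcdh, a mitochondrial enzyme of lysine breakdown, Atg2a, an autophagy protein, and Mknk1, a kinase, at 0.09 each (median gene 0.60). Kdr had Rrm2, Mrpl4 and Klf10 at 0.07 each (median gene 0.39). Nrp1 had Gimap4 at 0.04 and Pigbos1 and BC028528 at 0.06 each (median gene 0.42). For Vegfd these were Mb21d2, Tesmin and Cbr3, at 0.08 to 0.09 (median gene 0.53), and for Flt1, Klk13, Alas2 and Rab27a at 0.13 each (median gene 0.48), of which only Mb21d2 passed the test. All these genes were read from the same 6 arrays.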

How the data were processed

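Quadriceps total RNA was turned into biotin-labelled cRNA for Affymetrix arrays (labels' protocols). Deposited values are signal intensities on a linear scale, and the authors used MAS5 per the submitters' processing notes (version not given in the sources used here). Their 2% trimmed mean is 200 on each array.

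Of 45101 probe sets, 64 controls were left out. The platform annotation gave 1 gene for 34945, several for 932 and none listed for 9160, and gene names were checked against the GRCm38.p6 gene table. Signals were transformed as log2(signal + 16) and filtered at the 40th percentile of mean signal. The comparison used R 4.3.3 and limma 3.58.1, with lmFit, then eBayes with its trend option. Its two-sided p-values were adjusted by Benjamini and Hochberg's method across every probe set past the filter. Alternatives changed the filter, the added constant, the scaling between arrays, the weighting or variance model, a block for replicate number, the probe set per gene, and the arrays used (each left out in turn). Median scaling set each array's median signal over all probe sets to a common value before the constant was added, and a version over the tested probe sets was added after seeing the data. The titles number replicates 1 to 3, but same-numbered arrays did not deviate together (correlations of deviations 0.07, -0.08 and -0.02), so no pairing was used. Nothing says how far replicates were processed apart, so p-values measure the spread between these arrays.

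Members and gene lists were chosen with earlier results of these data known. Named genes are all members, Esrrg, defining cell type markers, the 3 largest called changes per pathway list, and the 3 nearest patterns per called member. Of 43 signal transducers, 7 had no single-gene probe set. Promoter sequences are from RefSeq (GRCm38.p6), matched by symbol for all 10 genes. Plots used matplotlib 3.10.9 in Python 3.11.15.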

Additional observations from a re-analysis of the deposited data

How the results depend on the processing

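Of the members, Vegfa, Vegfb, Kdr and Nrp1 kept direction and call under all 17 alternatives that give a test, with differences of 1.13 to 1.45, 1.05 to 1.35, 0.61 to 0.84 and 0.65 to 0.91. The brightest Flt1 probe set passed in 7 of 17 (0.60 to 1.09) and Vegfd in 11 of 17 (-1.19 to -0.66), and neither reversed. No member gene changed direction under these alternatives. Expression relative to the endothelial markers, chosen after seeing the data, lowers every difference by 0.66, so the uncalled Vegfc, Flt4 and Nrp2, whose differences were smaller, come out at -0.08, -0.29 and -0.31. The count of called members higher was 4 or 5 genes and 10 to 12 probe sets throughout. With median scaling over all probe sets, the all-gene median moved by -0.14 and the calls over the array were 977 higher and 2399 lower (28.9% higher, against 55.2% as deposited). The share depended on the probe sets behind the median: over the tested ones it was 43.3% (1355 higher and 1772 lower). Under the first, relative to the all-gene median Vegfa differed by 1.24 and Kdr by 0.71, against 1.25 and 0.72 as deposited.

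Member probe sets called lower were 0 without the filter or without the intensity trend (3 at an unadjusted limma p under 0.05 in each) and 3 after median scaling or quantile normalization. Member genes called lower were 0 without the filter or the trend (1 at an unadjusted p under 0.05). Called signal transducers numbered 8 with median scaling or array weights, 7 with median scaling over tested probe sets, 1 without the trend and 5 with the replicate block, where the numbers only name samples. Called partners of neuropilins were 2 with either median scaling or quantile normalization and 0 without the trend (3 higher and 3 lower at an unadjusted p under 0.05). Called processing genes were 0 without the filter or the trend (3 higher and 2 lower at an unadjusted p under 0.05), and 1 with either median scaling, quantile normalization or the replicate block. Called VEGF-induced genes were 2 without the filter and 1 without the trend. Over the array, 1584 probe sets were called without the trend. Leaving out 1 array gave 1705 to 3301 calls over the array, 0 to 1 member probe sets and 0 to 1 member genes lower, 1 to 8 transducers, 1 to 2 neuropilin partners, 0 to 3 processing genes and 2 to 5 VEGF-induced genes. The 8 transducers came without wild-type 3, and the lowest array count without wild-type 1. The block changed no member gene's call. The causes were not tested, and dim probe sets (Pgf, 1 of Vegfc) allow no comparison.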
